A study of Mus musculus with 20 samples.

Results

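The CXC chemokine ligands Cxcl1, Cxcl2, Cxcl3, Cxcl9, Cxcl10, Cxcl11, Cxcl16, Pf4 and Ppbp were described in dendritic cells grown from mouse bone marrow (BMDCs). They were picked out by gene symbol, as 9 of the 24421 genes in the count table, a rule that uses no measured value. BMDCs were grown from the marrow of 5 mice (A to E) for 8 days in GM-CSF at 40 ng/mL, and cells of each mouse were split over 4 groups of 5 libraries. All cells received ovalbumin for 4 hours, either alone (Ova) or bound by rabbit anti-ovalbumin IgG as insoluble immune complexes (IC), which engage Fcγ receptors. They were also given I-BET151 (iBET), an inhibitor of the BET family of bromodomain proteins, at 3.3 μM, or DMSO at 5% as the labels give it. The groups were therefore iBET Ova, iBET IC, DMSO Ova and DMSO IC. The labels give neither the strain nor the age of the mice. The labels state no DMSO content for the iBET cells, so a difference in solvent and the effect of iBET cannot be told apart if the solvent was not matched. In the study's methods, iBET for culture was dissolved in DMSO, and DMSO was its control. There, 5% DMSO is given only for the solution used in live mice. The study's methods place iBET 30 minutes before the stimulus, whereas the labels describe both as given together.

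CXC chemokines are small secreted proteins that guide leukocytes through G protein-coupled receptors. Cxcl1, Cxcl2, Cxcl3 and processed Ppbp act on CXCR2 and draw neutrophils. Cxcl9, Cxcl10 and Cxcl11 are interferon-inducible ligands of CXCR3 on activated T cells and NK cells, Pf4 is platelet factor 4, and Cxcl16 is a membrane-anchored ligand of CXCR6 that also acts as a scavenger receptor. In dendritic cells and macrophages, NF-κB induces the neutrophil attractants after immune activation, and BET proteins are transcriptional co-activators that bind acetylated histones.

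Total counts per library ran from 16447491 to 29245150. The BMDC label was compared with marker genes. All 7 dendritic cell markers were tested, and their summed level lay between 4360 and 9079 CPM (counts scaled to the library's size) in every library, although Flt3 averaged only 1.55 CPM. Most of the sum was Cd74 and Itgax, whose means were higher with iBET under either stimulus. H2-Aa, H2-Ab1 and Zbtb46 had lower means with iBET. Ciita had means of 43.8 CPM in DMSO Ova and 46.6 in DMSO IC, against 1.36 in iBET Ova and 1.06 in iBET IC. In the same order, Flt3 had means of 3.03 and 2.56 against 0.242 and 0.349 CPM. T, B and NK cell markers each summed to at most 0.726 CPM. Of 8 neutrophil markers, 7 were listed and 5 were tested, and their sum was 15.8 to 51.4 CPM in DMSO Ova, 12.4 to 39.7 in DMSO IC, 14.1 to 42.0 in iBET Ova and 12.1 to 31.0 in iBET IC. Of these, S100a9 had at most 558 counts in a library, S100a8 358, Ltf 70, Ngp 67, Mpo 22 and Camp 9. Elane had 1 count in all libraries together. Under either stimulus, S100a8, S100a9, Ngp and Camp had lower means with iBET, whereas Mpo and Ltf had higher ones. Means of Mpo were 0.0331 CPM in DMSO Ova, 0.0165 in DMSO IC, 0.449 in iBET Ova and 0.654 in iBET IC. Of 6 mast cell and basophil markers 2 were tested and Mcpt4 had no count, and their sum was 11.6 to 35.0 CPM over the DMSO libraries and 7.96 to 31.1 CPM over the iBET libraries. That sum differed by mouse, at 7.96 to 16.7 CPM in mice A and B and 25.1 to 35.0 CPM in mice C, D and E. The sum of 5 monocyte markers was lower with iBET, at 92.1 to 130.3 CPM in iBET Ova and 105 to 123 in iBET IC against 437.5 to 830.5 in DMSO Ova and 279 to 461 in DMSO IC. Most of that gap lay in Ccr2, with means of 487 CPM in DMSO Ova and 15.0 CPM in iBET Ova, whereas Ly6c2 had means of 30.4 and 30.9 CPM. The sum of 8 macrophage markers was 1765 to 2413 CPM in DMSO Ova, 1867 to 2505 in DMSO IC, 1293 to 1682 in iBET Ova and 1351 to 1984 in iBET IC. The part of these marker shifts in the results that follow was not tested. In such bulk libraries, fewer cells of a type and less RNA per cell cannot be told apart.

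Of the 9 genes, 8 lie in one stretch of chromosome 5 (GRCm38, GENCODE annotation). On the plus strand follow Ppbp (chr5:90768518-90770063), Pf4 (chr5:90772435-90773383), Cxcl3 (chr5:90786103-90789600), Cxcl1 (chr5:90891241-90893115) and Cxcl2 (chr5:90903871-90905938). The CXCR3 ligands form a second set on the minus strand, with Cxcl9 (chr5:92321347-92328079), Cxcl10 (chr5:92346638-92348889) and Cxcl11 (chr5:92359544-92365485). Cxcl16 stands alone on the minus strand of chromosome 11 (chr11:70453983-70459984). Cxcl11 is annotated as a polymorphic pseudogene in this reference. All others are protein-coding.

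Promoter sequences of 7 of the 9 genes (Ppbp, Pf4, Cxcl3, Cxcl1, Cxcl2, Cxcl9 and Cxcl10) were matched in RefSeq (GRCm38.p6), each 300 bases from 250 before to 50 after the RefSeq start. Cxcl11 and Cxcl16 were not matched. The 120 bases before the start are shown for the 3 neighbouring neutrophil attractants, because they responded unequally to iBET, and for Cxcl10, the CXCR3 ligand that passed the filter. Capitals mark matches to the NF-κB consensus.
Cxcl3, chr5:90785981-90786100, plus strand: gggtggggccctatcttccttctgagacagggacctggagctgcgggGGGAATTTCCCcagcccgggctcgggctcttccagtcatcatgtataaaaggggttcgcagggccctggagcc
Cxcl1, chr5:90891125-90891244, plus strand: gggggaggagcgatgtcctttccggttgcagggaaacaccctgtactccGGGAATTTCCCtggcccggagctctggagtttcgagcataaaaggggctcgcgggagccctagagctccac
Cxcl2, chr5:90903779-90903898, plus strand: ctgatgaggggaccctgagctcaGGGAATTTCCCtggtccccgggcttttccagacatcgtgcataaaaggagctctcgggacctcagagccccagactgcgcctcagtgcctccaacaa
Cxcl10, chr5:92348890-92349009, minus strand: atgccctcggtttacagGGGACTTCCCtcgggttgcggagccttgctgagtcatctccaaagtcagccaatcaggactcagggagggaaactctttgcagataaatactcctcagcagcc

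Cxcl3, Cxcl1 and Cxcl2 carried the same letters, GGGAATTTCCC, which hold a pair of overlapping matches on both strands. Counted from the RefSeq start, the run began at -73 in Cxcl3, -71 in Cxcl1 and -97 in Cxcl2. The RefSeq start can differ from the GENCODE start. For Cxcl2 the bases shown end at 90903898, past its GENCODE start at 90903871. For Cxcl3 (90786100 and 90786103) and Cxcl1 (90891244 and 90891241) the same positions lie closer together. The farther position in Cxcl2 therefore depends on the start chosen. Cxcl10 carried a match from -103 to -94 and another from -159 to -150. Of the 7 promoters, 4 held the consensus, against 4.51% of 32851 mouse promoters of the same length. The interferon-factor core AANNGAAA was found in Cxcl10 alone of the 7 (23.9% of all promoters), the AP-1 letters TGANTCA in Ppbp, Cxcl9 and Cxcl10 (7.81%), and TATAAA in Ppbp, Cxcl3 and Cxcl9 (13.6%). All were searched on both strands, and a match describes letters, not a bound site.

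The 9 genes spanned a wide range of transcript levels once corrected for exon length. That length joins all annotated exons of a gene. For Cxcl1, Cxcl2, Cxcl3 and Cxcl10 it equals the whole gene, introns included, whereas for the other ligands it is shorter than the gene. This may understate the CPM per kb of Cxcl1, Cxcl2, Cxcl3 and Cxcl10 against the others. In the DMSO Ova group, Pf4 had 92.0 ± 41.5 CPM per kb (SD, n = 5 mice) and Cxcl16 had 85.9 ± 11.3 (SD, n = 5), which did not differ beyond their spread. Cxcl3 followed at 10.0 ± 6.27, Cxcl2 at 9.25 ± 5.58 and Ppbp at 5.89 ± 3.03 CPM per kb (SD, n = 5 each), again within one spread. Cxcl1 at 0.498 ± 0.400 and Cxcl10 at 0.334 ± 0.133 CPM per kb (SD, n = 5 each) were lower still. With DMSO and IC the order of the first genes was Cxcl16 at 106 ± 17.3, Pf4 at 105 ± 34.0 and Cxcl3 at 38.3 ± 11.9 CPM per kb (SD, n = 5 each). In the iBET IC group Cxcl3 stood at 4.60 ± 1.55, below Cxcl2 at 20.6 ± 8.09 CPM per kb (SD, n = 5 each).

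**Figure D1:**
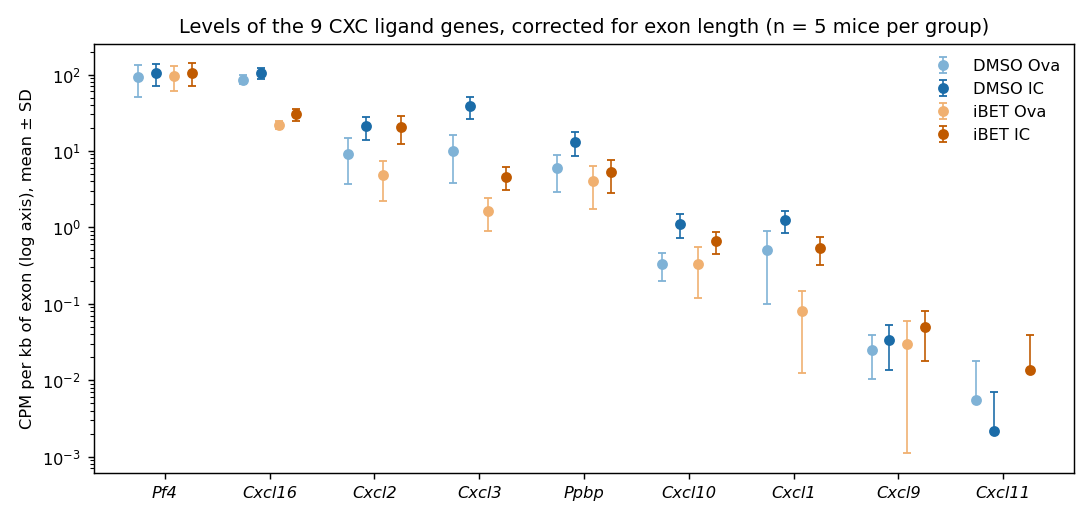
Mean transcript level of the 9 CXC ligand genes in CPM per kb of exon (log axis), with bars for the SD over 5 mice and 1 colour per group (a lower bar is left out where the SD exceeds the mean, and Cxcl11 in iBET Ova had no counts). Pf4 and Cxcl16 lie highest, and Cxcl9 and Cxcl11 lie below 0.05 CPM per kb in every group.

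Filtering on low counts left 12465 genes, 7 of the 9 among them. Cxcl9 had at most 8 counts in a library and Cxcl11 at most 4, so neither was tested. Differential expression was tested with edgeR's quasi-likelihood test, with p-values adjusted by Benjamini-Hochberg over all genes tested, and a gene was called at an adjusted p under 0.05.

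With Ova, iBET lowered 3 of the 7 tested ligands (Cxcl3, Cxcl1 and Cxcl16), against 28.9% of all tested genes called lower. No ligand was called higher, against 27.7% of all genes. With IC, iBET lowered 4 of 7 (Cxcl3, Cxcl16, Ppbp and Cxcl1), against 29.0% called lower over all genes, and raised none, against 27.1%. The median log2 fold change of the 7 was -0.96 with Ova and -1.19 with IC, beside medians over all genes of -0.003 and -0.005. Without overlap between the CPM of the groups, 3 ligands were lower with Ova (19.5% of all genes) and 2 with IC (21.6%), and none was higher in this way (18.5% and 21.1% of all genes). With the mouse as a replicate block, 5 ligands were called lower with Ova (35.2% of all genes in that fit) and 5 with IC (35.4%), and none higher (33.5% and 32.6%). Leaving out each mouse in turn gave 3 to 4 ligands lower with Ova, and 2 with IC when mouse C was left out.

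IC raised 5 of the 7 ligands over Ova in DMSO-treated cells (Cxcl3, Cxcl10, Cxcl1, Cxcl2 and Ppbp), against 9.59% of all tested genes called higher. None was called lower, against 10.7%. In iBET-treated cells 4 of 7 rose with IC (Cxcl1, Cxcl2, Cxcl3 and Cxcl16), against 5.19% of all genes, and none fell, against 6.63%. The median log2 fold change of the 7 was 1.19 with DMSO and 0.96 with iBET, beside -0.024 and -0.014 over all genes. Levels in IC and Ova libraries did not overlap for 2 ligands in DMSO-treated cells (5.97% of all genes were higher in this way) and for 2 in iBET-treated cells (4.57%). None was lower in this way (6.41% and 5.46% of all genes). Fits that left out a mouse did not use the replicate block. In DMSO-treated cells the count fell in them to 2 without mouse B, 1 without mouse C, 3 without mouse D and 2 without mouse E. Without mouse C the count in iBET-treated cells was 2. With the replicate block it was 7 in DMSO-treated cells (18.3% of all genes in that fit) and 5 in iBET-treated cells (14.2%), and none was lower (19.8% and 14.7%).

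**Figure D2:**
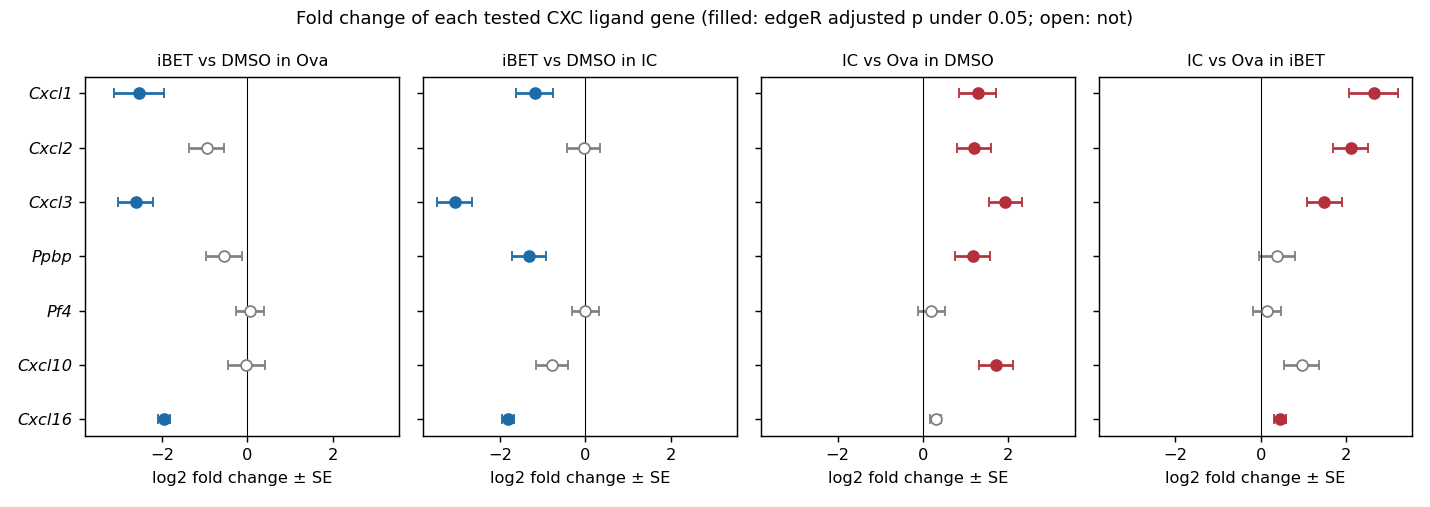
Log2 fold change of each tested CXC ligand gene in the 4 pairwise comparisons, with bars for the standard error from edgeR, and filled points for an adjusted p under 0.05. Cxcl3 and Cxcl16 lie left of 0 in both iBET comparisons, and all 7 genes lie right of 0 in both IC comparisons.

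Cxcl3, a neutrophil attractant, was the ligand with the largest fall under iBET with IC. In DMSO Ova it had 71.5, 37.1, 28.0, 14.2 and 24.8 CPM in mice A to E, and in DMSO IC 136, 170.1, 179, 85.6 and 98.7 CPM. With iBET these were 6.58, 8.84, 6.53, 1.76 and 5.02 CPM for Ova and 15.1, 19.7, 19.4, 7.01 and 19.2 CPM for IC. Every iBET library lay below every DMSO library given the same stimulus, and every DMSO IC library above every DMSO Ova library. Under iBET the log2 fold change of Cxcl3 was -2.62 with Ova (SE 0.42, edgeR adjusted p = 2.5e-05), in 5 of 5 mice. It was -3.06 with IC (SE 0.41, edgeR adjusted p = 2.48e-06), an 8.32-fold fall, also in 5 of 5 mice. IC raised it by 1.93 on the log2 scale with DMSO (SE 0.38, edgeR adjusted p = 0.0016). With iBET the rise was 1.50 (SE 0.42, edgeR adjusted p = 0.024), again in 5 of 5 mice. That call was lost without mouse B (edgeR adjusted p = 0.0655), mouse C (0.107) or mouse E (0.0959). It was kept with the replicate block (edgeR adjusted p = 0.000306). The iBET IC libraries overlapped the range of the DMSO Ova libraries.

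Cxcl2, also known as MIP-2, is encoded next to Cxcl1 and acts on the same receptor. It had 38.4, 20.3, 16.1, 9.46 and 11.5 CPM in mice A to E in DMSO Ova, and 12.4, 17.3, 9.28, 2.97 and 7.66 CPM in iBET Ova. The ranges overlapped, but iBET was lower in each of the 5 mice. The log2 fold change was -0.96 (SE 0.41, edgeR adjusted p = 0.0551), and with the replicate block -0.98 (SE 0.19, edgeR adjusted p = 0.000204), which passes. It also passed without mouse B (edgeR adjusted p = 0.031) or mouse D (0.0443), with library size only (0.0426) and with 3 surrogate variables (3.81e-05). The block in DESeq2 passed as well (adjusted p = 2.01e-05), so 6 of 14 alternatives called it. With IC, Cxcl2 had 45.6, 65.8, 45.0, 26.9 and 35.4 CPM with DMSO and 51.4, 65.1, 43.3, 23.5 and 29.6 CPM with iBET. These values nearly coincided within each mouse, with log2 differences of iBET from DMSO between -0.26 and 0.17 (mean -0.07 ± 0.17, SD, n = 5 mice). No difference was called (log2 fold change -0.03, edgeR adjusted p = 0.947). IC raised Cxcl2 in 5 of 5 mice, by 1.19 on the log2 scale with DMSO (SE 0.40, edgeR adjusted p = 0.041) and by 2.11 with iBET (SE 0.42, edgeR adjusted p = 0.0025). The rise with DMSO was lost without mouse B (edgeR adjusted p = 0.116), mouse C (0.182) or mouse E (0.123), and in the 10 libraries compared (0.0522). That call was kept with the replicate block (log2 fold change 1.26, SE 0.18, edgeR adjusted p = 2.46e-05).

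The ratio of Cxcl3 to Cxcl2 within a library shows their unequal change, and scaling between libraries cancels in it. In DMSO Ova it was 1.86, 1.82, 1.75, 1.50 and 2.16 in mice A to E, and in DMSO IC 2.99, 2.58, 3.98, 3.19 and 2.79. With iBET it was 0.533, 0.511, 0.704, 0.591 and 0.656 for Ova, and 0.294, 0.303, 0.449, 0.299 and 0.649 for IC. Every DMSO library thus had a higher CPM of Cxcl3 than of Cxcl2, and every iBET library a lower one. These CPM are not corrected for exon length, which is 3498 bases for Cxcl3 and 2068 for Cxcl2. A ratio of 1 therefore does not mark equal transcript levels. Per kb, the means in DMSO Ova were 10.0 ± 6.27 for Cxcl3 and 9.25 ± 5.58 for Cxcl2 (SD, n = 5 each). The log2 ratio with iBET minus that with DMSO was -1.60 with Ova (SD of the within-mouse differences 0.26, n = 5 mice, exact permutation p = 0.00794 two-sided, adjusted over 4 comparisons 0.0106). It was -3.02 with IC (SD 0.53, n = 5, exact permutation p = 0.00794, adjusted 0.0106). Between IC and Ova the log2 ratio differed by 0.77 with DMSO (SD 0.36, n = 5, exact permutation p = 0.00794, adjusted 0.0106). With iBET it differed by -0.65 (SD 0.38, n = 5, exact permutation p = 0.0397, adjusted 0.0397), which was lost without mouse A (exact permutation p = 0.0857), B (0.0857), C (0.114) or D (0.114). These permutations treat the libraries as independent, and 0.00794 is the smallest p they can give. Within mice, each of the 4 differences had the same sign in 5 of 5 mice. An exact sign-flip test of the 5 paired differences gave p = 0.0625 for each. That is the smallest p this test can give with 5 pairs, so it cannot pass 0.05. The ratio was chosen after the values of both genes were seen. The adjustment over 4 comparisons does not cover that choice, so these p-values are descriptive. Of the 50-base stretches in Cxcl2 exons, 5.84% also occur in Cxcl3 transcripts, and 4.24% of those of Cxcl3 occur in Cxcl2 or other genes, so a part of their reads may be split between them.

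**Figure D3:**
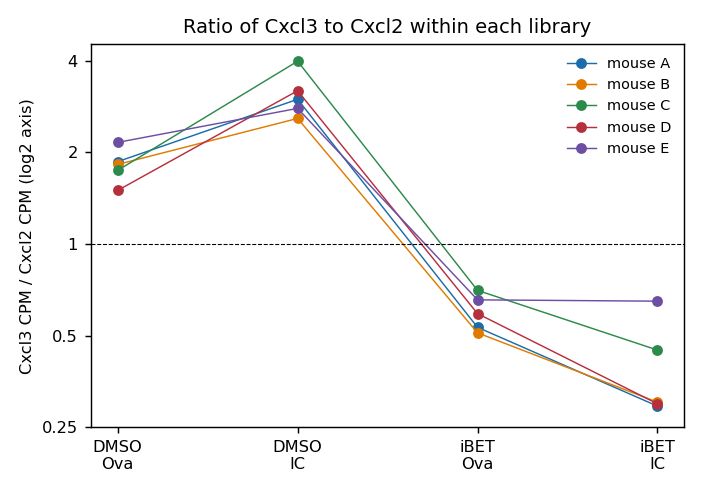
CPM of Cxcl3 divided by CPM of Cxcl2 in each library (log2 axis), by group, with lines joining libraries of the same mouse and a dashed line at equal CPM. CPM are not corrected for exon length, so the dashed line does not mark equal transcript levels. All 10 DMSO libraries lie between 1.50 and 3.98, and all 10 iBET libraries between 0.294 and 0.704.

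Cxcl1, or KC, was near the limit of these libraries, with at most 66 counts in any of them. It had 2.23, 0.949, 0.471, 0.560 and 0.462 CPM in mice A to E in DMSO Ova, and 0.242, 0.108, 0, 0.315 and 0.0837 CPM in iBET Ova. The groups did not overlap, and the library at 0 (mouse C) allows up to 0.182 CPM, counting error only. The log2 fold change was -2.55 (SE 0.58, edgeR adjusted p = 0.000921). Levels rose with IC to 2.76, 3.00, 2.33, 1.04 and 2.52 CPM with DMSO and to 1.52, 1.33, 0.724, 0.811 and 0.612 CPM with iBET. IC was higher in each of the 5 mice, and the groups were apart with iBET but overlapped with DMSO, where the Ova library of mouse A stood well above the other four. The log2 fold change for IC was 1.29 with DMSO (SE 0.43, edgeR adjusted p = 0.0409) and 2.65 with iBET (SE 0.58, edgeR adjusted p = 0.00543). The former was lost without mouse B (edgeR adjusted p = 0.138), C (0.153), D (0.0757) or E (0.16), with no filter (0.0568) or in the 10 libraries compared (0.0814). That call was kept with the replicate block (edgeR adjusted p = 0.00144). With IC, iBET changed Cxcl1 by -1.19 on the log2 scale (SE 0.43, edgeR adjusted p = 0.0241). It was lower in 5 of 5 mice, and the call was lost without mouse B (edgeR adjusted p = 0.0719), C (0.0662) or E (0.0968), and in limma on the deposited normalised values (adjusted p = 0.0522). The replicate block kept it (edgeR adjusted p = 0.000982).

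Ppbp encodes the precursor of neutrophil-activating peptide 2. It had 11.2, 7.88, 6.08, 3.40 and 3.39 CPM in mice A to E in DMSO Ova and 13.2, 16.5, 21.6, 12.4 and 8.04 CPM in DMSO IC. With iBET it had 7.51, 6.29, 4.08, 2.03 and 1.97 CPM for Ova and 6.88, 9.17, 6.05, 2.62 and 3.67 CPM for IC. All neighbouring groups overlapped, while the direction within mice was steady. In DMSO-treated cells IC raised it by 1.16 on the log2 scale (SE 0.40, edgeR adjusted p = 0.0474), in 5 of 5 mice. That call was lost without mouse B (edgeR adjusted p = 0.0924), C (0.247), D (0.113) or E (0.0696), with library size only (0.0558) or with no filter (0.0569). It was kept with the replicate block (edgeR adjusted p = 0.000112). In iBET-treated cells the log2 fold change was 0.39 (SE 0.42, edgeR adjusted p = 0.623), with 4 of 5 mice higher. iBET lowered Ppbp with IC in 5 of 5 mice, a call lost without mouse C (edgeR adjusted p = 0.0663) and kept with the replicate block (7.48e-06). The log2 fold change for iBET was -1.32 with IC (SE 0.41, edgeR adjusted p = 0.00935). With Ova it was -0.55 (SE 0.42, edgeR adjusted p = 0.279) and, with the replicate block, -0.56 (SE 0.23, edgeR adjusted p = 0.0365), lower in 5 of 5 mice.

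Pf4, the neighbour of Ppbp, behaved differently, since it varied between mice far more than between groups. It had 108, 82.8, 61.9, 44.3 and 34.2 CPM in mice A to E in DMSO Ova, and 100.5, 93.1, 85.0, 59.4 and 42.1 CPM in DMSO IC. In iBET Ova it had 102, 80.6, 71.2, 52.7 and 37.8 CPM, and in iBET IC 96.9, 97.8, 82.4, 63.2 and 40.3 CPM. Mouse E was lowest and mouse D next lowest in all 4 groups. The log2 fold change for iBET was 0.05 with Ova (SE 0.32, edgeR adjusted p = 0.896) and 0.005 with IC (SE 0.32, edgeR adjusted p = 0.991). Within mice the difference of iBET from DMSO with IC was between -0.06 and 0.09 on the log2 scale. IC against Ova with DMSO gave 0.20 (SE 0.32, edgeR adjusted p = 0.727) and, with the replicate block, 0.24 (SE 0.07, edgeR adjusted p = 0.0146), higher in 4 of 5 mice. With iBET it gave 0.15 (SE 0.32, edgeR adjusted p = 0.83).

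Pf4 and Ppbp are abundant in megakaryocytes and platelets, and 9 marker genes of those cells were read beside them. All 9 had counts and 6 were tested. Their sum was 117 to 173 CPM in DMSO Ova, 100.2 to 157 in DMSO IC, 102 to 153 in iBET Ova and 97.5 to 147 in iBET IC, ranges that overlap. Nearly all of it was Vwf, and the other 8 summed to between 5.45 and 10.1 CPM in any library. Itga2b had at most 106 counts in a library, Clec1b 103, Gp1bb 43, Treml1 34 and Tubb1 16, whereas Gp9, Gp6 and Gp1ba each had at most 2. Without Vwf, the markers summed over the 4 groups to 7.63 to 9.60 CPM in mouse A, 8.67 to 10.1 in mouse B, 6.16 to 7.77 in mouse C, 5.45 to 8.12 in mouse D and 7.06 to 7.67 in mouse E. The part of such cells in the levels of Pf4 and Ppbp was not tested.

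**Figure D4:**
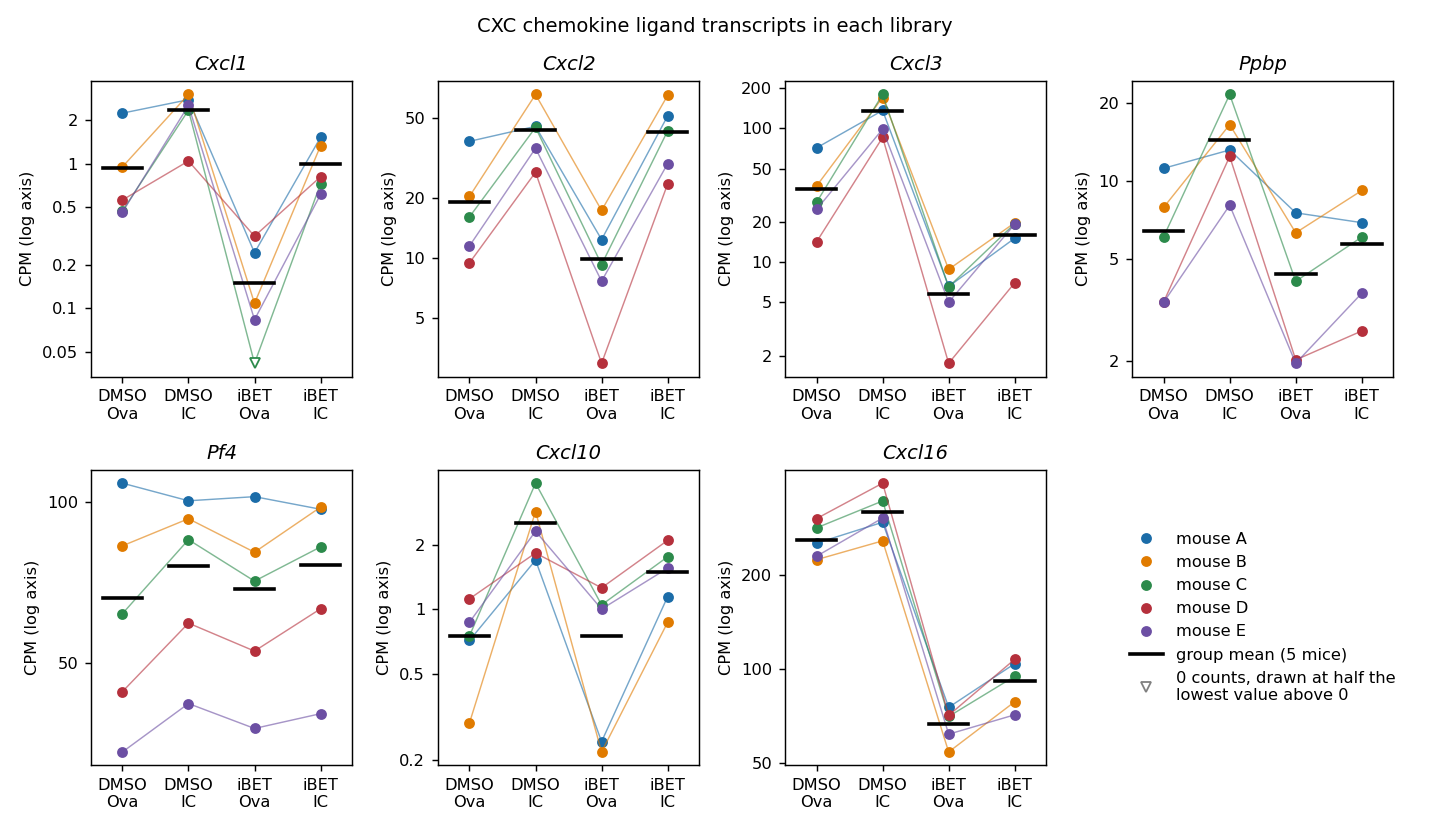
CPM of the 7 tested CXC ligand genes in each library (log axes that differ between panels), with 1 colour per mouse, lines joining libraries of the same mouse and black bars for group means. Cxcl3 and Cxcl16 drop in both iBET groups, Cxcl2 returns to the DMSO IC level in iBET IC, and the Pf4 lines of mice A to E run nearly flat.

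Cxcl10 (IP-10), a CXCR3 ligand, was present at 4 to 83 counts in a library. In DMSO Ova it had 0.717, 0.296, 0.753, 1.12 and 0.872 CPM in mice A to E, and in DMSO IC 1.70, 2.86, 3.87, 1.83 and 2.31 CPM. The groups did not overlap, and IC raised Cxcl10 by 1.70 on the log2 scale (SE 0.40, edgeR adjusted p = 0.00518). That call was lost without mouse C (edgeR adjusted p = 0.0582) and kept with the replicate block (0.00025). With iBET Cxcl10 had 0.242, 0.217, 1.05, 1.26 and 1.00 CPM for Ova and 1.15, 0.871, 1.76, 2.10 and 1.56 CPM for IC. IC was higher in 5 of 5 mice there too, with a log2 fold change of 0.96 (SE 0.41, edgeR adjusted p = 0.138) that passed only with the block by mouse in edgeR (0.99, SE 0.33, edgeR adjusted p = 0.03) and in DESeq2 (1.05, adjusted p = 0.0086). Between iBET and DMSO, Cxcl10 differed by -0.03 with Ova (SE 0.43, edgeR adjusted p = 0.962). With IC it differed by -0.77 (SE 0.38, edgeR adjusted p = 0.0893) and, with the replicate block, by -0.78 (SE 0.27, edgeR adjusted p = 0.017), lower in 4 of 5 mice. This difference also passed with 3 surrogate variables (edgeR adjusted p = 0.0212) and in the 10 libraries compared (0.0389). The block in DESeq2 passed as well (adjusted p = 0.0114), so 4 of 14 alternatives called it. The gene lies within Art3, which had 1 count in all libraries together.

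The other CXCR3 ligands were at the edge of detection. Cxcl9 had 9 counts over the 5 DMSO Ova libraries, 11 in DMSO IC, 10 in iBET Ova and 17 in iBET IC. Cxcl11 had 3, 1, 0 and 5 counts, and a count of 0 in an iBET Ova library allows up to between 0.119 and 0.182 CPM, counting error only. With the filter on low counts dropped, none of the pairwise comparisons of Cxcl9 or Cxcl11 was called, with edgeR adjusted p-values of at least 0.476 for Cxcl9 and 0.235 for Cxcl11. A response to IC or iBET in these genes was not detectable at this depth.

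Cxcl16 had the smallest spread between mice of the ligands lowered by iBET. In DMSO Ova it had 254, 225, 284, 304 and 230.4 CPM in mice A to E, and in iBET Ova 75.5, 54.3, 70.5, 71.2 and 61.9 CPM. In DMSO IC it had 296, 258, 346.5, 395 and 305.5 CPM, and in iBET IC 104, 78.6, 94.9, 108 and 71.4 CPM. The highest iBET library (108 CPM) lay far below the lowest DMSO library (225 CPM). The log2 fold change for iBET was -1.96 with Ova (SE 0.14, edgeR adjusted p = 3.45e-10), a 3.89-fold fall, and -1.81 with IC (SE 0.13, edgeR adjusted p = 8.93e-10). IC raised it in iBET-treated cells by 0.46 on the log2 scale (SE 0.13, edgeR adjusted p = 0.0283), in 5 of 5 mice. That call was lost without mouse A (edgeR adjusted p = 0.0835), C (0.106) or D (0.0836), and with scaling by library size only (log2 fold change 0.35, edgeR adjusted p = 0.0784). It was kept with the replicate block (edgeR adjusted p = 9.56e-05). In DMSO-treated cells the log2 fold change was 0.30 (SE 0.13, edgeR adjusted p = 0.105) and, with the replicate block, 0.30 (SE 0.07, edgeR adjusted p = 0.0016), also higher in 5 of 5 mice. Cxcl16 overlaps Zmynd15, which had 16 to 140 counts in a library against 1001 to 9492 for Cxcl16.

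Whether iBET acted differently with IC than with Ova was tested as an interaction, the log2 fold change of iBET with IC minus that with Ova. None of the 7 ligands was called, against 0.0401% of all genes (5 genes), and at an unadjusted p under 0.05 there were 543 genes and no ligand. With the replicate block 1395 genes had an unadjusted p under 0.05, among them the ligands Cxcl2, Ppbp and Cxcl1, and 102 genes but no ligand were called. The largest differences were 1.36 for Cxcl1 (SE 0.73, edgeR adjusted p = 1) and 0.92 for Cxcl2 (SE 0.57, edgeR adjusted p = 1), the latter above 0 in 5 of 5 mice. For Ppbp the difference was -0.77 (SE 0.58, edgeR adjusted p = 1), below 0 in 5 of 5 mice. The block by mouse gave edgeR adjusted p = 0.124 for Cxcl2 and 0.26 for Ppbp. With 3 surrogate variables Cxcl2 passed (log2 difference 1.23, edgeR adjusted p = 0.0268). DESeq2's Wald test called 24 genes (531 at an unadjusted p under 0.05) and no ligand.

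Of 6 further mouse CXC ligands, all listed, Cxcl14 alone was tested. It had 4.05 ± 0.415 CPM in DMSO Ova and 5.24 ± 0.471 CPM in iBET IC (SD, n = 5 each), and no comparison called it, with the smallest edgeR adjusted p at 0.133. Cxcl5, Cxcl12, Cxcl13, Cxcl15 and Cxcl17 had at most 7 counts in a library.

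The receptors of these ligands were mostly at the edge of detection. Of 8 CXC receptor genes, 2 were tested, and Cxcr1, Cxcr3, Cxcr5, Cxcr6, Ackr1 and Ackr3 had at most 14 counts in a library. Cxcr2, the receptor of Cxcl1, Cxcl2, Cxcl3 and Ppbp, had 2.12 ± 1.24 CPM in DMSO Ova, 1.67 ± 0.590 in DMSO IC, 0.503 ± 0.331 in iBET Ova and 0.319 ± 0.152 in iBET IC (SD, n = 5 each). It had at most 79 counts in a library. Its lowest values were 0.180 CPM in iBET Ova and 0.185 in iBET IC, near the 0.103 to 0.182 CPM that a count of 0 allows. Its log2 fold change under iBET was -2.08 with Ova (SE 0.45, edgeR adjusted p = 0.00054), and for IC-treated cells it was -2.41 (SE 0.48, edgeR adjusted p = 0.00024). Cxcr4, the receptor of Cxcl12, had 97.4 ± 20.1 CPM in DMSO Ova, 113 ± 13.5 in DMSO IC, 54.9 ± 1.42 in iBET Ova and 79.6 ± 7.22 in iBET IC (SD, n = 5 each). It fell with iBET by 0.83 on the log2 scale with Ova (edgeR adjusted p = 3e-06), and for IC-treated cells it fell by 0.50 (edgeR adjusted p = 0.000694). IC raised it in iBET-treated cells by 0.54 (edgeR adjusted p = 0.00361), and in DMSO-treated cells the log2 fold change was 0.21 (edgeR adjusted p = 0.193, and 0.0432 with the replicate block).

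Genes of 3 routes that act on CXC ligands were read from fixed lists. All 10 NF-κB subunits and feedback genes were tested. iBET raised 1 and lowered 4 of them under either stimulus, beside 27.7% raised and 28.9% lowered of all genes with Ova and 27.1% and 29.0% with IC (median log2 fold change of the list -0.30 with Ova and -0.23 with IC). IC raised 3 and lowered none under either treatment (medians 0.22 and 0.40), beside 9.59% raised and 10.7% lowered of all genes with DMSO and 5.19% and 6.63% with iBET. With the replicate block iBET raised 1 and lowered 6 with Ova and raised 2 and lowered 6 with IC, and IC raised 6 with DMSO and 7 with iBET and lowered none. Of all genes in that fit, iBET raised 33.5% and lowered 35.2% with Ova, and 32.6% and 35.4% with IC. For IC these shares were 18.3% and 19.8% with DMSO, and 14.2% and 14.7% with iBET. Nfkb1, the p105 subunit, had a log2 fold change for iBET of -0.28 with Ova (edgeR adjusted p = 0.421, blocked by mouse 0.000107), and in IC-treated cells -0.23 (edgeR adjusted p = 0.512, blocked by mouse 0.000318). Nfkbia, the inhibitor IκBα, rose with IC by 0.56 with DMSO (edgeR adjusted p = 0.0351) and 0.92 with iBET (edgeR adjusted p = 0.00274). Nfkb2 was called in no comparison, and with the replicate block it passed for IC with DMSO (log2 fold change 0.22, edgeR adjusted p = 0.0413) and with iBET (0.33, edgeR adjusted p = 0.0092).

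Of 16 genes on the interferon route to the CXCR3 ligands, 14 were tested. Ifng had no count and Ifnb1 at most 1 count in a library. iBET raised 3 and lowered 6 under either stimulus, with median log2 fold changes of -0.30 and -0.28, beside the same shares of all genes (27.7% raised and 28.9% lowered with Ova, 27.1% and 29.0% with IC). IC raised 2 and lowered 3 with DMSO, and raised 2 and lowered 1 with iBET (medians -0.02 and 0.03), beside 9.59% raised and 10.7% lowered of all genes with DMSO and 5.19% and 6.63% with iBET. Blocked by mouse, iBET raised 4 and lowered 9 with Ova and raised 5 and lowered 8 with IC. In that fit IC raised 2 and lowered 3 with DMSO and raised 3 and lowered 2 with iBET. Of all genes in it, iBET raised 33.5% and lowered 35.2% with Ova, and 32.6% and 35.4% with IC. For IC these shares were 18.3% and 19.8% with DMSO, and 14.2% and 14.7% with iBET. Jak2 fell with iBET by 1.02 on the log2 scale with Ova (edgeR adjusted p = 0.0127), and for IC-treated cells it fell by 1.00 (edgeR adjusted p = 0.0145). Jak1 rose with iBET by 0.17 with Ova (edgeR adjusted p = 0.0456), and for IC-treated cells it rose by 0.19 (edgeR adjusted p = 0.0215). For Irf8 the log2 fold change was -0.68 with Ova (edgeR adjusted p = 0.0587), and for IC-treated cells also -0.68 (edgeR adjusted p = 0.0601). Both passed with the replicate block (3.22e-08 and 4.97e-08).

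Of 8 genes that process CXC ligands or decay their mRNAs, 7 were tested. iBET raised 1 and lowered 1 under either stimulus, beside the shares of all genes given for the NF-κB list. With the replicate block it raised 3 and lowered 3 with Ova (33.5% and 35.2% of all genes) and raised 1 and lowered 3 with IC (32.6% and 35.4%). IC raised 2 and lowered none with DMSO (9.59% and 10.7% of all genes). None was called for IC with iBET (5.19% raised and 6.63% lowered of all genes). Blocked by mouse, IC raised 2 and lowered 1 with DMSO (18.3% and 19.8%) and raised 1 and lowered 1 with iBET (14.2% and 14.7%). Median log2 fold changes of the list were 0.14 and -0.07 for iBET with Ova and with IC, and -0.02 and 0.13 for IC with DMSO and with iBET. Zfp36, which encodes tristetraprolin, a protein that promotes decay of AU-rich mRNAs, was raised by iBET by 0.58 on the log2 scale with Ova (edgeR adjusted p = 0.000689), and by 0.75 in IC-treated cells (edgeR adjusted p = 5.71e-05). Adam17, a shedding protease, rose with IC in DMSO-treated cells by 0.42 (edgeR adjusted p = 0.0136). Adam10, the protease that releases Cxcl16 from the membrane, was called in no comparison, with log2 fold changes for iBET of 0.18 with Ova and 0.18 with IC (edgeR adjusted p = 0.314 and 0.321).

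The profiles of the ligands over the 20 libraries were compared by Pearson's r of log2 CPM, as a description, since libraries share mice, depth and treatment. Among the ligands, r was highest between Cxcl3 and Ppbp (0.85), Cxcl3 and Cxcl16 (0.81) and Cxcl3 and Cxcl1 (0.80), whereas Cxcl3 and Cxcl2 had 0.73 and Pf4 and Cxcl10 -0.17. The most similar genes outside the family were Ccl3 (0.96), Il1f9 (0.96) and Cd300lf (0.96) for Cxcl3. For Cxcl2 they were Tgm2 (0.95), Irak2 (0.94) and Lrp12 (0.93), and for Cxcl1 Fam129b (0.94), Bhlhe41 (0.92) and Clec4e (0.92). For Cxcl16 they were Glipr1 (0.99), Akt2 (0.99) and Arl5c (0.98). Ppbp had B3gnt2 (0.92), Alg8 (0.90) and Zfp367 (0.90), Pf4 had Apoe (0.92), Fosb (0.92) and Gstm2 (0.91), and Cxcl10 had Snx3 (0.89), Gatad2a (0.88) and Basp1 (0.88).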

How the data were processed

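RNA of the BMDCs was sequenced as 2 x 150 bp libraries made with a Takara SMARTer pico kit. Per the labels, the cells were sorted into lysis buffer. The authors trimmed reads (Trim Galore), aligned them to mm10 with HISAT2 and deposited raw gene counts from featureCounts. The gene annotation, strand and multimapping settings are not given in the sources used here. The authors also deposited the same counts divided by size factors, a normalised signal that was used only in a limma alternative (log2 with a pseudocount of 1).

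Counts were tested with edgeR 4.0.16 in R 4.3.3: filterByExpr, TMM scaling, glmQLFit and glmQLFTest on all 20 libraries with group as the only term, and Benjamini-Hochberg adjustment over 12465 genes. CPM use TMM-scaled library sizes. Of 24421 genes, 6187 had no count. The SE is the absolute log2 fold change divided by the square root of F. To compare genes, CPM were divided by the length in kb of all GENCODE exons of a gene joined. The scripts were tested on simulated data. Total counts of 16447491 to 29245150 put the limit of a 0 (3 counts) at 0.103 to 0.182 CPM, counting error only.

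Labels name the mouse of each library. Deviations from the group mean, correlated across genes, moved together in each of the 30 pairs of libraries from 1 mouse (mean r 0.524, lowest 0.307), so the mouse was fitted as a replicate block in an alternative. Other alternatives were DESeq2 1.42.0 with and without that block, its size factors, library size only, 3 surrogate variables (sva 3.50.0), no filter, the 10 libraries compared, limma 3.58.1 and each mouse left out. Of these, only the DESeq2 fit with the block used it. The fits with a mouse left out were therefore unpaired, and none was run with the block. Within-library ratios of Cxcl3 to Cxcl2 were compared by exact permutation of 5 against 5 libraries and, added after the values were seen, by an exact sign-flip test of the 5 within-mouse differences.

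Named were all 9 ligands, tested CXC ligands and receptors, the 3 genes of highest mean CPM of each other list, and the 3 genes outside the family with the highest r to each tested ligand. Other genes named beside them (markers and overlapping genes) are checks. One listed marker is not reported here. Members, lists and markers were chosen with earlier results of these data known.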

Additional observations from a re-analysis of the deposited data

Results flagged for a closer look

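Cxcl1 in the DMSO Ova library of mouse A, at 2.23 CPM, stood apart from the other four libraries of its group, which lay between 0.462 and 0.949 CPM. The gap took up 0.724 of the group's range, above Dixon's critical value of 0.71 for 5 samples. In all, 28 groups of values were tested (7 genes in 4 groups), chance flags about 1 in 20, and this was the 1 flag. Without mouse A, the log2 fold change of Cxcl1 for IC with DMSO was 1.88, against 1.29 with it.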

How the results depend on the processing

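The cause of the changes given here was not tested unless stated. Of 483 values of single ligands under another setting, 428 kept their direction and side of the threshold, 29 lost significance and 19 gained it. Another 7, none called in either setting, changed sign, with log2 values of at most 0.20 in size. The replicate block changed 6 of 35 calls, each given beside its result, and no other. An exact test within mice left the log2 ratio of Cxcl3 to Cxcl2 at -1.60, -3.02, 0.77 and -0.65, each with p = 0.0625, because 5 pairs allow no smaller p. Ligands lower with iBET in Ova numbered 5 with the replicate block and 5 with the block in DESeq2, against 3. With IC as stimulus, leaving out a mouse gave 2 to 4 ligands lower with iBET, against 4. Ligands higher with IC in DMSO-treated cells numbered 3 with no filter and 3 in the fit of the 10 libraries compared, against 5, and 1 to 5 with a mouse left out. In iBET-treated cells a mouse left out gave 2 to 3, against 4. One ligand (Cxcl2) was called in the interaction with 3 surrogate variables, against none in the main test. Leaving out a mouse moved the log2 ratio of Cxcl3 to Cxcl2 between IC and Ova with iBET to between -0.81 and -0.57. Scaling by library size only moved the median log2 fold change of all genes for IC against Ova from -0.024 to -0.131 with DMSO and from -0.014 to -0.121 with iBET. Counts of 0 to 83 in a library limit what can be said of Cxcl1 and Cxcl10.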
